A study of Mus musculus with 6 samples.

Results

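The genes described here are 33 genes that striatal neurons are known for, nearly all of them genes of projection neurons, with Chat as the marker of cholinergic interneurons among the 33. They were chosen by symbol and are 33 of the 23016 rows of the deposited gene table, 1 row for each symbol. RNA was sequenced from the cerebral cortex of 6 mouse pups at postnatal day 0, with 1 library for each brain. The pups came from crosses between Fezf2+/- parents: 3 were Fezf2+/+ (called wild type 1 to 3) and 3 were Fezf2-/- (called Fezf2 KO 1 to 3), and no group received a treatment. Fezf2 is a zinc finger protein that specifies corticofugal neurons of the deep cortical layers. Replicates 1 and 2 of each genotype came from the litter named m1 and replicate 3 of each from the litter named m2. The sources used here name neither the strain and sex of the pups nor the design of the deleted allele.

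The striatum lies directly beneath the cortex, and nearly all of its neurons are GABAergic medium spiny projection neurons. Those of the direct pathway carry the dopamine D1 receptor with the peptides substance P and dynorphin, and those of the indirect pathway carry the dopamine D2 receptor, the adenosine receptor Adora2a and enkephalin. Dopamine raises cyclic AMP in the former and lowers it in the latter, and several cyclic AMP signalling genes are enriched in these cells. Many of the signalling genes, and Meis2, are also expressed by cortical neurons, whereas Drd2, Adora2a, Six3, Isl1, Ebf1 and Rxrg are more restricted. In RNA from whole tissue, fewer cells of a type and less RNA in each cell cannot be told apart.

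Values are read counts for each gene divided by a size factor for its library, and are called normalised counts. The libraries held 44978380 to 52872577 reads on genes, and 1 read was worth 0.8119 to 0.9357 normalised counts. Fezf2 itself was between 5030.3 and 5928 in wild type and between 1377 and 1989 in Fezf2 KO, so no library went against its label. Genes of cortical projection neurons (13 genes, such as Neurod6 and Tbr1) were high in every library, with a summed value between 132094 and 155921. Of the 33 genes, 31 reached 10 normalised counts in at least 3 libraries and were tested. Drd3, a dopamine receptor of the ventral striatum, had 46 reads over all libraries, and Chat had at most 8 in any library, so neither was tested. Oprm1 was the only tested gene under 10 in a library.

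No striatal gene passed the test between genotypes (limma on log2(normalised count + 1), adjusted p under 0.05), whereas 0.712% of the 17557 genes tested were called, 0.308% lower and 0.404% higher in Fezf2 KO. Most of them nevertheless had lower values in the knockout: the fitted log2 difference was below 0 for 26 of 31, against 49% of all genes tested, and the median difference was -0.30 against 0.00. An unadjusted p under 0.05 was reached by 15 in the lower direction (4.37% of all genes) and by 1 in the higher direction (4.66%). At least 2-fold lower values were fitted for 11 of them (0.832% of all genes). All 3 knockouts were below all 3 wild types for 11 (6.85%), and all 3 were above for 1 (7.6%). These counts are descriptions, because the genes were chosen with earlier results of these data known.

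The knockout libraries differed widely from each other. Fezf2 KO 1 was the lowest of all 6 libraries for 23 of the 31 genes (23.2% of all genes tested), and Fezf2 KO 2 was the highest knockout for 26 (30.6%). The order Fezf2 KO 1, then 3, then 2 held for 23 (19% of all genes). Under 50% of the wild type mean lay 13 genes in Fezf2 KO 1 (2.41% of all genes), 12 in Fezf2 KO 3 (1.45%) and 0 in Fezf2 KO 2 (0.985%). In Fezf2 KO 2, 13 of 31 lay within the wild type range (48.4% of all genes) and 12 lay below it (25.6%). Below all wild types lay 27 genes in Fezf2 KO 1 (30%) and 21 in Fezf2 KO 3 (23.5%). On the wild type side, wild type 1 was the highest of all 6 libraries for 19 genes (13.4%). Some marker lists described below shared the order of the knockouts. Fezf2 KO 2 was the highest knockout for 16 of 19 other striatal, 6 of 7 pallidal and septal and 6 of 7 thalamic rows. The same held for 5 of 7 hippocampal, 4 of 5 cholinergic, 6 of 10 microglial and 3 of 5 olfactory bulb rows. It was so for 4 of 10 endothelial and mural, 1 of 5 choroid plexus, 2 of 13 cortical projection and 0 of 4 erythroid rows. The full order held for 12 of 19 other striatal, 3 of 7 pallidal and septal, 5 of 7 thalamic and 2 of 13 cortical projection rows. It also held for 4 of 7 hippocampal, 3 of 5 olfactory bulb, 4 of 10 microglial and 1 of 5 cholinergic rows.

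**Figure D1:**
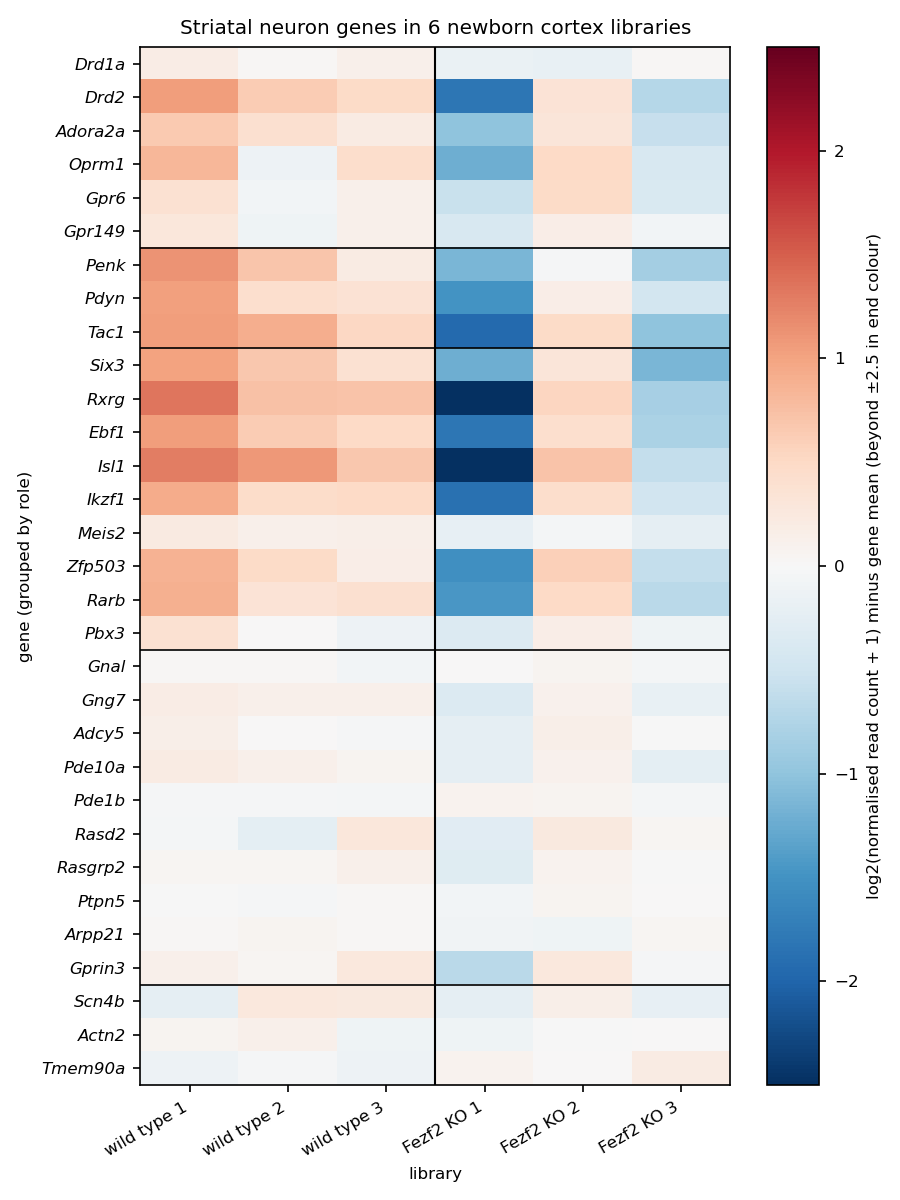
Level of each of the 31 tested striatal genes (rows, grouped by role: receptors, neuropeptides, transcription factors, second messenger signalling, then channel, cytoskeleton and synapse) in each library (columns), as log2(normalised count + 1) minus the gene's mean over the 6 libraries. Fezf2 KO 1 was the lowest library for 23 genes, and the widest ranges are those of Isl1 and Rxrg.

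The genes fell into a set of 13 with less than 50% of the wild type mean in Fezf2 KO 1 and the other 18. The 13 were Drd2, Adora2a, Oprm1, Penk, Pdyn, Tac1, Six3, Rxrg, Ebf1, Isl1, Ikzf1, Zfp503 and Rarb, a division made after the values were seen and therefore not tested. In this set Fezf2 KO 1 had 5.02% to 37.0% of the wild type mean, Fezf2 KO 3 had 27.4% to 54.7% and Fezf2 KO 2 had 59.4% to 105%. Fezf2 KO 2 exceeded its litter mate Fezf2 KO 1 by 2.16-fold to 16.0-fold, with a median of 4.42-fold. Because the set was chosen by low values in Fezf2 KO 1, a high ratio follows in part from that choice. Over all 31 genes, 15 were at least 1.5 times higher in Fezf2 KO 2 than in Fezf2 KO 1 (6.2% of all genes). Among the other 18 tested genes the same ratio ran from 0.94 to 2.05, with a median of 1.28. Just inside the 50% level in Fezf2 KO 1 was Adora2a at 37.0% and just outside it was Gprin3 at 56.4%.

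Among the receptors, Drd2 had the largest ratio between Fezf2 KO 2 and 1. Drd2, the dopamine D2 receptor, had 405, 307 and 273 normalised counts in wild type 1 to 3 and 55.2, 251 and 120.1 in Fezf2 KO 1 to 3. The groups did not overlap, but Fezf2 KO 2 was close to the lowest wild type and 4.54-fold above Fezf2 KO 1. The means were 329 ± 68.5 and 142 ± 99.5 (SD, n = 3 each), a log2 difference of -1.44 (SE 0.463, limma adjusted p = 0.330).

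Adora2a, an adenosine receptor that opposes Drd2 signalling, had 1628, 1355 and 1192 in wild type and 515, 1278 and 689.7 in Fezf2 KO. Fezf2 KO 2 thus lay between wild type 2 and wild type 3, and the other knockouts lay below every wild type. Its log2 difference was -0.84 (SE 0.291, limma adjusted p = 0.384). Oprm1, the mu opioid receptor of striatal patches, had 36.5, 18.3 and 27.5 in wild type and 8.12, 28.7 and 15.01 in Fezf2 KO, so the groups overlapped at this low depth.

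The receptor of the direct pathway did not share the pattern of Drd2. Drd1a, the dopamine D1 receptor, which deep-layer cortical neurons also express, had 664, 593 and 639 in wild type and 517, 515 and 593 in Fezf2 KO. The highest knockout was Fezf2 KO 3, just below the lowest wild type, and Fezf2 KO 1 and 2 were nearly equal. Its log2 difference was -0.22 (SE 0.091, limma adjusted p = 0.499). The orphan receptor Gpr6, a marker of indirect pathway neurons, had 260.1, 189 and 217 against 135, 276 and 153, with Fezf2 KO 2 the highest of all 6 libraries. Gpr149, another orphan receptor, had 218, 166 and 197 against 135, 202 and 170.4, and Drd3 had 8.42, 5.24 and 9.45 against 8.93, 6.29 and 1.77.

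The 3 neuropeptide precursors were lower in every knockout than in every wild type. Penk, the precursor of enkephalin, had 677, 502 and 362 in wild type and 141, 305 and 172 in Fezf2 KO. Tac1, the precursor of substance P, had 663, 602 and 462 in wild type and 82.8, 451 and 159.8 in Fezf2 KO. Pdyn, the precursor of dynorphin, had 119.8, 78.5 and 75.6 in wild type and 20.3, 65.6 and 42.4 in Fezf2 KO. Wild type 1 was the highest and Fezf2 KO 1 the lowest library for each of them. Penk had the smallest p of the peptides (log2 -1.34, SE 0.307, limma adjusted p = 0.133), and Fezf2 KO 2 kept 59.4% of its wild type mean, the lowest share among the 31 tested striatal genes in that library. For Tac1 the knockout mean of 231 ± 194 had an SD nearly as large as the mean (log2 -1.64, SE 0.514, limma adjusted p = 0.313), and for Pdyn the log2 difference was -1.19 (SE 0.393, limma adjusted p = 0.348).

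**Figure D2:**
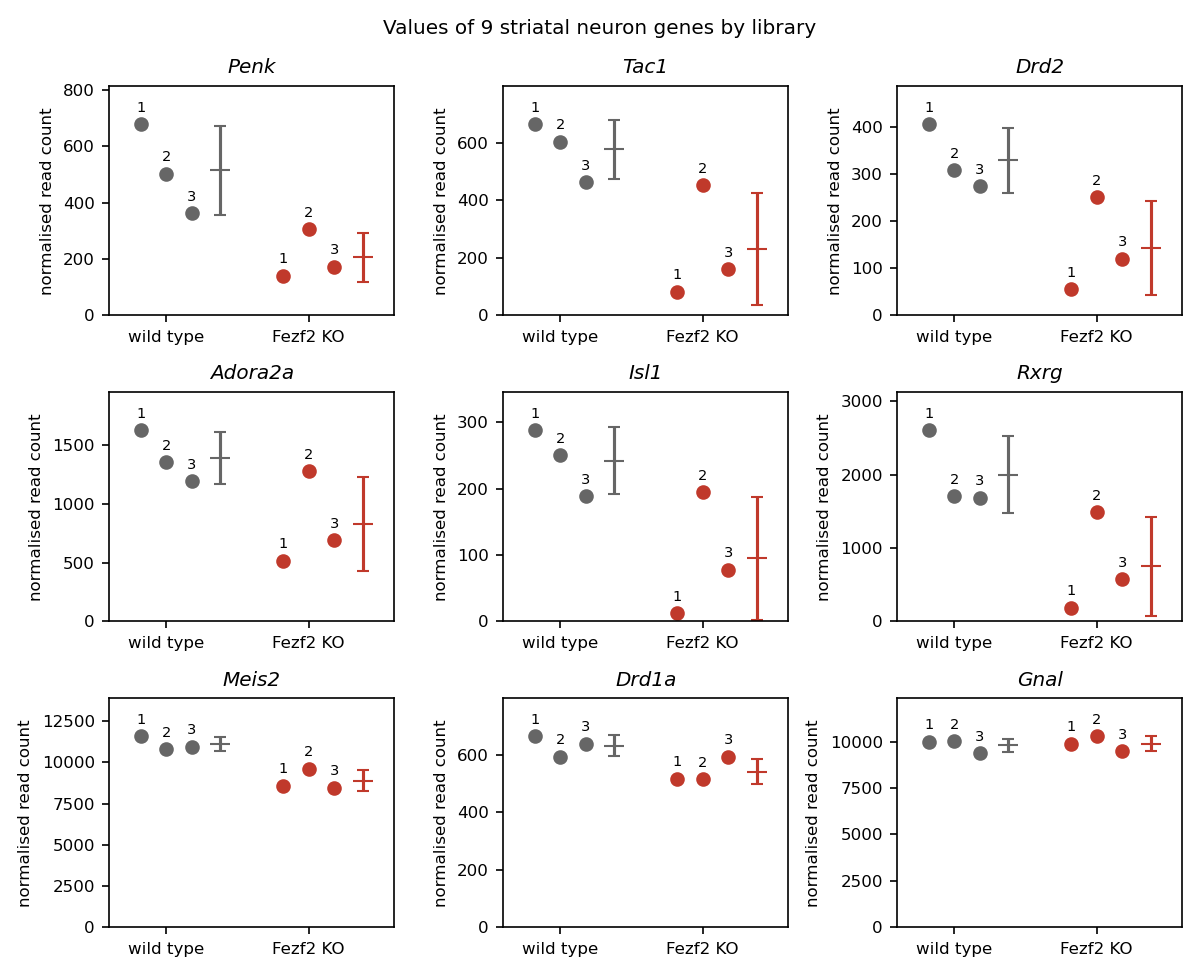
Normalised counts of 9 striatal genes, with 1 point for each library (numbered by replicate) and the mean ± SD of each genotype beside the points. In the top 2 rows Fezf2 KO 2 lies far above Fezf2 KO 1, whereas Meis2, Drd1a and Gnal vary little between knockouts.

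Among the 31 tested genes, the transcription factors Isl1 and Rxrg had the lowest shares of their wild type mean, 5.02% and 9.18% in Fezf2 KO 1. Isl1, a LIM homeodomain factor of direct pathway neurons, had 288, 250.4 and 189 in wild type and 12.2, 195 and 77.7 in Fezf2 KO. In reads, Fezf2 KO 1 had 15 and Fezf2 KO 2 had 217, a 16.0-fold ratio of normalised counts between litter mates of 1 genotype, and Fezf2 KO 2 was above wild type 3. The log2 difference of Isl1 was -2.03 (SE 0.818, limma adjusted p = 0.496). Rxrg, a retinoid X receptor, had 2607, 1708 and 1685 in wild type and 184, 1489 and 577 in Fezf2 KO, with no overlap and an 8.11-fold ratio between Fezf2 KO 2 and 1 (log2 -1.85, SE 0.629, limma adjusted p = 0.369).

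Six3, a homeodomain factor of indirect pathway neurons, had 532, 422 and 343 in wild type and 113, 327 and 118 in Fezf2 KO. Ebf1, a helix-loop-helix factor of direct pathway neurons, had 617, 459 and 417 in wild type and 84.4, 399 and 170.4 in Fezf2 KO. For both, every knockout was below every wild type, and Fezf2 KO 2 was just under wild type 3. The log2 differences were -1.37 for Six3 (SE 0.382, limma adjusted p = 0.243) and -1.45 for Ebf1 (SE 0.474, limma adjusted p = 0.342). Ikzf1, the zinc finger factor Ikaros, had 337, 243 and 251 against 47.9, 238 and 126, with the same order of knockouts and no overlap.

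Zfp503 and Rarb overlapped between genotypes through Fezf2 KO 2. Zfp503, the zinc finger factor Nolz1, had 879.6, 673 and 537 in wild type and 165, 728 and 317 in Fezf2 KO. Rarb, a retinoic acid receptor, had 857, 586 and 608 in wild type and 169, 650.2 and 291 in Fezf2 KO. In both genes Fezf2 KO 2 was above wild type 2 and wild type 3, whereas Fezf2 KO 1 and 3 were below all of them.

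Meis2, a homeodomain factor of both striatal and cortical neurons, had a small difference with little spread. It had 11583, 10785 and 10936 in wild type and 8589, 9614 and 8475 in Fezf2 KO, with no overlap. The means were 11101 ± 424 and 8893 ± 628 (SD, n = 3 each), and the log2 difference of -0.32 (SE 0.059) gave the smallest adjusted p of the 31 genes (0.0625 by limma). Pbx3, a partner of Meis factors, had 1212, 935 and 852 against 739, 1049.8 and 866, and the genotypes overlapped.

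Tac1 and Isl1 had the largest ratio between Fezf2 KO 2 and 1 among the peptides (5.44-fold) and the factors (16.0-fold), and their promoters are shown because each holds the core of the cyclic AMP response element more than once. The letters searched were TGACG, on both strands. RefSeq promoter windows of GRCm38.p6, 250 bases before each annotated start, were matched for 27 of the 33 genes (48 windows). The motif was in 7 of the 48 windows (14.6%), those of Arpp21, Chat, Gng7, Gpr6, Isl1 and Tac1, against 17.8% of the 32851 windows of all genes. TATAAA was in 1 window, that of Meis2 (2.08%), against 12.4% of all windows. The windows of Tac1 (chr6:7554811-7555060, plus strand) and Isl1 (chr13:116309689-116309938, minus strand) each hold 2 matches. They are printed 5′ to 3′ in the direction of transcription, with the matches or their reverse complement in capitals.
Tac1: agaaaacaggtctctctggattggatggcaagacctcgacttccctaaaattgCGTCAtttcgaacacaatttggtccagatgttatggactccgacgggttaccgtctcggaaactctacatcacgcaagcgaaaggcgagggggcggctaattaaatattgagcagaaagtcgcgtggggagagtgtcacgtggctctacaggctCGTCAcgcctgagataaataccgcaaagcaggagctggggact
Isl1: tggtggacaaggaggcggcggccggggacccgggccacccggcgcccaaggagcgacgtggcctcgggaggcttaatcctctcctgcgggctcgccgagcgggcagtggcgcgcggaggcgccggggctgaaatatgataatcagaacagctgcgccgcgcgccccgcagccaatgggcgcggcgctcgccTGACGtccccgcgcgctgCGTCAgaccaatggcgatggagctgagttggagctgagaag
The matches lie 197 and 43 bases before the start in Tac1 and 59 and 41 bases before the start in Isl1, counted from the first base printed in capitals. At least 2 matches were found in 3.9% of all windows. A match is a string of letters and not a measured binding site.

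The second messenger genes, which cortical neurons share to different degrees, had small differences: 6 of 10 had a log2 difference below 0 and the median was -0.08. Gng7, the G protein gamma subunit that striatal neurons pair with the olfactory type alpha subunit, had 9856, 9519 and 9500.2 in wild type and 6837, 9427 and 7651 in Fezf2 KO. Its groups did not overlap, and Fezf2 KO 2 was again nearest to wild type (log2 -0.28, SE 0.103, limma adjusted p = 0.418). Pde10a, the phosphodiesterase of medium spiny neurons, had 7257, 6878 and 6671 against 5388, 6785 and 5317, with Fezf2 KO 2 inside the wild type range (log2 -0.26, SE 0.093, limma adjusted p = 0.410).

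Gnal, the olfactory type G alpha subunit that couples the dopamine D1 receptor to adenylyl cyclase, had 9990, 10001 and 9373 against 9884, 10283 and 9463. Adcy5, the main striatal adenylyl cyclase, had 9267, 8433 and 8203 against 7169, 9323 and 8357. In both, the genotypes overlapped, with log2 differences of 0.01 and -0.07. Ptpn5, the striatum-enriched phosphatase STEP, had 13135, 12862 and 13478 against 12585, 13806 and 13203, which is a log2 difference of 0.00.

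Rasgrp2, a guanine nucleotide exchange factor, had 4529.7, 4523 and 4772 against 3521, 4651 and 4353, and Fezf2 KO 1 was the lowest. Gprin3, a G protein interacting protein, had 182, 173 and 199 against 103.9, 198 and 162, again with Fezf2 KO 1 the lowest. Arpp21, a cyclic AMP regulated phosphoprotein, had 6005, 6156 and 6015 against 5534, 5436 and 6099.5. Their groups overlapped, and so did those of Rasd2, the small G protein Rhes, with 352, 307 and 444 against 299.6, 430.2 and 375. Pde1b, a calmodulin-dependent phosphodiesterase, had 5239, 5188 and 5138 against 5682, 5593 and 5133, and was the only 1 of the 31 with Fezf2 KO 1 the highest of 6 (24% of all genes).

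Of the remaining genes, Tmem90a was the only one above all wild types in every knockout. Tmem90a, whose current symbol is Syndig1l, encodes a membrane protein first found in the striatum, and had 3853, 4127 and 3840 in wild type and 4491, 4221 and 4877 in Fezf2 KO (log2 0.20, SE 0.065, limma adjusted p = 0.338). Scn4b, a sodium channel beta subunit, had 12.2, 17.5 and 17.2 against 12.2, 16.2 and 12.4, where 3 reads are worth 2.44 to 2.81. Actn2, an actin crosslinker, had 334, 349 and 296 against 296, 317 and 318. Chat, choline acetyltransferase, had 8, 6 and 5 reads against 2, 3 and 1, too few to compare.

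**Figure D3:**
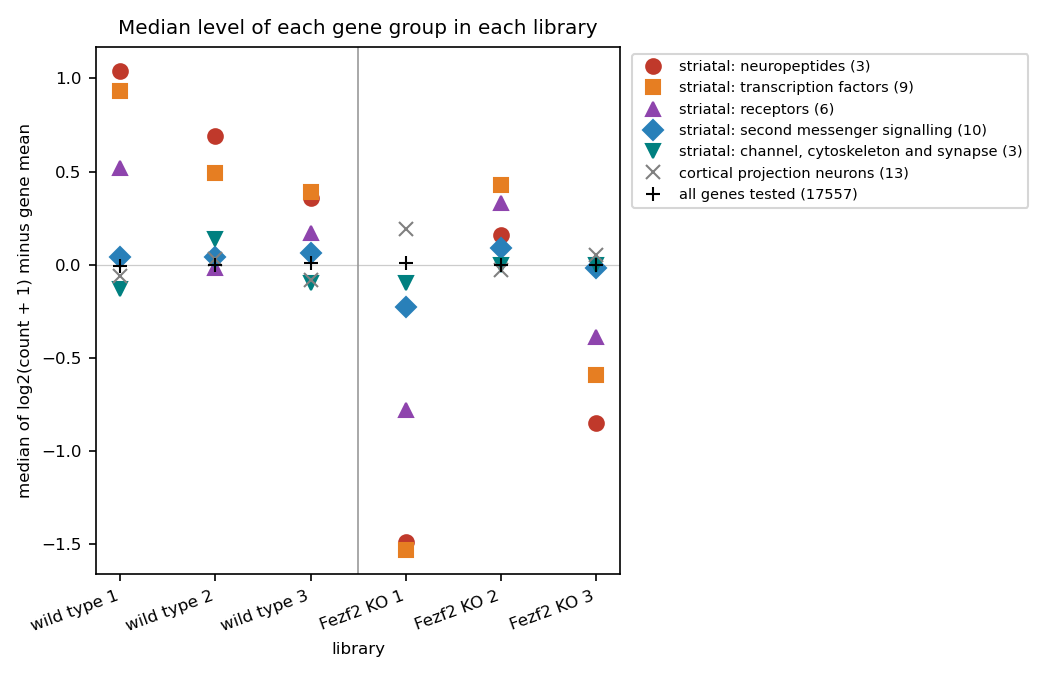
Median over each gene group of log2(normalised count + 1) minus the gene's mean (vertical axis) in each of the 6 libraries (horizontal axis), with the number of genes in brackets. The neuropeptides and transcription factors go from 1.04 and 0.93 in wild type 1 to -1.49 and -1.53 in Fezf2 KO 1 and are at 0.16 and 0.43 in Fezf2 KO 2, while the median of all genes stays between -0.01 and 0.01.

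The role groups differed in the size of the genotype difference. The median log2 difference between genotypes was -1.34 over the 3 neuropeptides, -1.27 over the 9 transcription factors, -0.53 over the 6 tested receptors, -0.08 over the 10 signalling genes and -0.07 over the 3 channel, cytoskeleton and synapse genes. At least 2-fold lower values were fitted for 3 of 3 peptides, 7 of 9 factors, 1 of 6 receptors and 0 of the 13 others. In Fezf2 KO 2 the medians of receptors (0.33), factors (0.43) and peptides (0.16) were all above the genes' own means. Those means include the low values of Fezf2 KO 1 and 3. The peptide median was below those of wild type 1 to 3 (1.04, 0.69 and 0.36). Fezf2 KO 2 was below every wild type for 3 of 3 peptides, 5 of 9 factors and 2 of 6 receptors (25.6% of all genes). In both litters taken alone, 22 of 31 genes were lower in Fezf2 KO (28.6% of all genes). In the set of 13 the log2 difference ran from -2.41 to -0.71 in m1 and from -1.55 to -0.76 in m2. The m1 range includes the Fezf2 KO 1 values by which the set was chosen.

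The number of calls depended on Fezf2 KO 2. Without that library, limma called 9 of the 31 genes lower (0.416% of all genes): Six3 (adjusted p = 0.0079), Tac1 (0.0169), Adora2a (0.0271), Meis2 (0.0291), Ebf1 (0.0336), Penk (0.0358), Gng7 (0.0387), Pde10a (0.0432) and Rarb (0.045). Without Fezf2 KO 1 in its place, 0 were called (0.33%). In litter m1 alone 0 were called (0.0968%), and 0 with the litter as a replicate block (0.365%). With all 6 libraries, edgeR called 0 (0.308% of all genes) and DESeq2 called 2, Meis2 (DESeq2 adjusted p = 0.000536) and Penk (DESeq2 adjusted p = 0.000871), against 0.918% of all genes. Over all alternatives the adjusted p ran from 0.000536 to 0.45 for Meis2 and from 0.000871 to 0.455 for Penk.

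**Figure D4:**
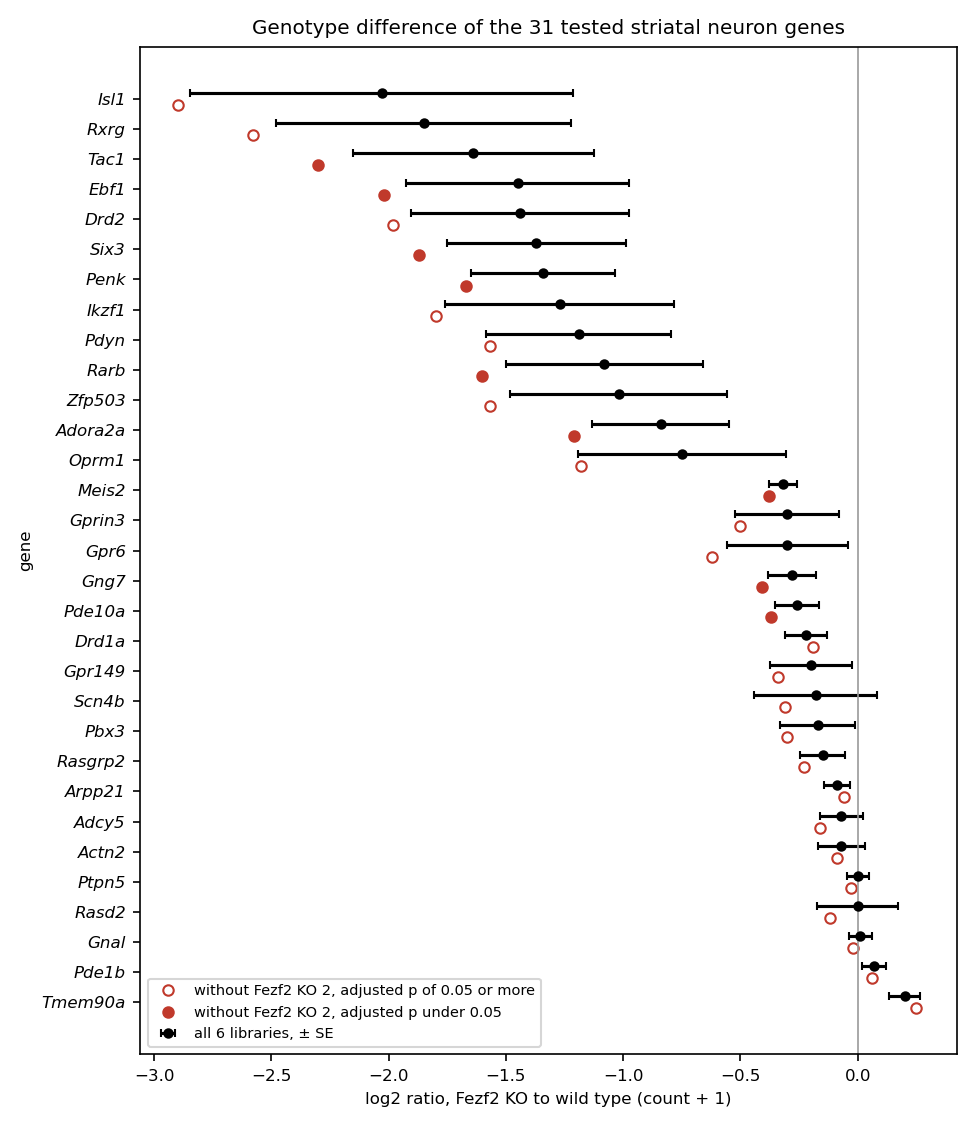
Fitted log2 ratio of Fezf2 KO to wild type (horizontal axis, on normalised count + 1) for the 31 tested striatal genes, with all 6 libraries (black points, ± SE) and without Fezf2 KO 2 (circles, filled where the limma adjusted p is under 0.05). The 13 genes with the widest range lie between -2.03 and -0.75 with all libraries, and 9 genes pass the threshold once Fezf2 KO 2 is left out.

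Further striatal genes were read from a list of 18 others (19 rows), among them the GABA enzymes Gad1 and Gad2 and the Dlx factors. Their median log2 difference was 0.03, and 2 of the 19 passed the limma test, both lower. Foxp2, a forkhead factor of striatal and of deep-layer cortical neurons, had 1354, 1146 and 1207 in wild type and 301, 512 and 325 in Fezf2 KO, and fell (log2 -1.74, SE 0.187, limma adjusted p = 0.00594). Ppp1r1b, which encodes the dopamine-regulated phosphoprotein DARPP-32 of medium spiny and deep-layer cortical neurons, had 6715, 6407 and 5718 against 2178, 3219 and 2244, and fell as well (log2 -1.32, SE 0.142, limma adjusted p = 0.00594). Fezf2 KO 2 held 41.4% of the wild type mean of Foxp2 and 51.3% of that of Ppp1r1b, lower than its share of every one of the 31 genes above.

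Bcl11b, the factor Ctip2 of both medium spiny and subcerebral neurons, had 14713, 12618 and 11760.3 against 5534, 9755 and 7116 (log2 -0.84, limma adjusted p = 0.114). Cnr1, the cannabinoid receptor, had 7692, 7696 and 7971 against 9279.7, 8471 and 9035 (log2 0.20, limma adjusted p = 0.167), higher in every knockout and not past the limma test. DESeq2 called it higher, besides Foxp2 and Ppp1r1b lower, and edgeR called those 2 alone.

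Dopamine and cyclic nucleotide signalling genes outside the 33 differed little between genotypes as a list. Of 29 genes (31 rows), 0 passed the limma test in either direction, with 5 lower and 2 higher at an unadjusted p under 0.05, and their median log2 difference was -0.02. By edgeR 1 was lower (Pde2a) and by DESeq2 2 were (Pde2a and Adcy1). Fezf2 KO 1 was the lowest of 6 for 14 of the 31 rows (23.2% of all genes), and 13 had the order Fezf2 KO 1, then 3, then 2 (19%). Pde7b, a cyclic AMP phosphodiesterase named after its values were seen, had 520.2, 403 and 421 against 165, 374 and 243, with no overlap (log2 -0.85, SE 0.264, limma adjusted p = 0.309). Pde2a, a cyclic GMP stimulated phosphodiesterase, had the smallest p (log2 -0.28, limma adjusted p = 0.0526), followed by the adenylyl cyclase Adcy1 (log2 -0.32, limma adjusted p = 0.109). Drd5, the dopamine D5 receptor, had 26.2, 35.8 and 28.4 against 16.2, 15.3 and 17.7 (log2 -0.83, limma adjusted p = 0.211), and Pde8b was higher without passing the test (log2 0.39, limma adjusted p = 0.223).

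Genes of cholinergic neurons, read because of Chat, gave 1 call among 5 tested. Ngfr, the low-affinity neurotrophin receptor, had 1205, 1491 and 1072 in wild type and 153, 168 and 133 in Fezf2 KO and fell (log2 -3.04, SE 0.141, limma adjusted p = 6e-05), and its knockout values lay close together. Lhx8, the LIM factor of cholinergic neurons, had 77.7, 43.6 and 23.2 against 8.12, 43.1 and 7.06. Fezf2 KO 2 was its highest knockout, and it did not pass the test (limma adjusted p = 0.546). The vesicular transporter Slc18a3 had 73.0, 91.6 and 45.55 against 65.0, 57.5 and 46.8, a log2 difference of -0.26 (limma adjusted p = 0.886). Ngfr lay above Slc18a3 and Chat in every library. Which cells its reads came from was not tested, so its fall is not a measure of cholinergic neurons.

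Markers of other tissues also set single libraries apart, and their part in the striatal values was not tested. In Fezf2 KO 1, where striatal genes were lowest, the summed value of 8 choroid plexus genes was 9757, against 189 to 303 in the other libraries, with 5 of 8 highest there and 1 at 0 in some library. Ttr, the choroid plexus transthyretin, had 8950.1 in Fezf2 KO 1 and 9.45 to 68.0 elsewhere. The 5 erythroid rows were all highest in Fezf2 KO 1, with a sum of 13905 against 8729 to 11473, and 1 at 0 in some library. The cortical projection genes summed to 155921 in Fezf2 KO 1 against 132094 to 145744 in the others, with 8 of 13 highest there and none at 0.

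In wild type 1, where striatal genes were highest, the septal factor Zic1 was highest too, with 954, 470.3 and 572 in wild type and 353, 443 and 427 in Fezf2 KO. The summed pallidal and septal genes (8) ran from 9086 to 10099 in wild type and were 11213, 10788 and 10836 in Fezf2 KO, and Lhx6, a factor that cortical interneurons also express, made up most of each sum. By limma 0 of the 7 tested passed (2 lower and 2 higher at an unadjusted p under 0.05), with 0 by edgeR and 1 (Lhx6) by DESeq2. Thalamic genes (8) summed to 1836 to 2103 in wild type and to 2025, 2509 and 2259.8 in Fezf2 KO, with 1 at 0 in some library. Gbx2, a defining factor of thalamus, had 22.5, 14.0 and 3.44 against 1.62, 22.5 and 3.53, on only 2 to 25 reads in each library. With more reads, Calb2 had 569, 561 and 602 against 468, 635 and 559. Ntng1 had 361, 425 and 228 against 296, 491 and 372, lowest in wild type 3. Slc17a6, a vesicular glutamate transporter, was the only call (log2 0.53, limma adjusted p = 0.0276). With 608, 698 and 687 against 929, 989 and 966, Slc17a6 was the largest part of each thalamic sum. Fezf2 KO 1 was the lowest of all 6 libraries for 3 of the 7 tested thalamic genes. The sources used here do not say how much tissue from beneath the cortex each dissection held.

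The other marker lists, choroid plexus, erythroid and cortical projection genes included, gave 0 limma calls at an adjusted p under 0.05 and 0 by edgeR, while DESeq2 called Nrp1 and Fibcd1 higher. At an unadjusted p under 0.05 limma had 2 higher in each of the choroid plexus, cortical, endothelial and mural, and hippocampal lists, 1 lower in the olfactory bulb list, and 0 in the microglial and erythroid lists. Hippocampal genes (7) summed to 4168 to 4381 in wild type and 4361, 5932 and 5680.0 in Fezf2 KO. Within that list Fibcd1 had 827, 1116 and 725 in wild type and 1230, 2062 and 2220 in Fezf2 KO. Olfactory bulb genes (5) summed to 1034 to 1498 against 1749.8, 1133 and 1003. Eomes made up most of each olfactory bulb sum, with 1122, 1137 and 764 against 1544, 714 and 684, so the sum mainly follows that gene. Th had 49.6, 31.4 and 23.2 against 10.6, 31.4 and 11.5, and Doc2g 90.8, 99.5 and 130 against 75.5, 86.2 and 117. Fezf2 KO 1 was the lowest of all 6 libraries for 2 of these 5 genes (Th and Doc2g) and the highest for 1 (Eomes). Endothelial and mural genes (10) summed to 9987 to 12472 against 13413, 13147 and 12255, and microglial genes (10) to 3504 to 4335 against 3361, 3855 and 3698. No gene of these 4 lists was at 0 in any library. Over them and the 13 cortical genes the median log2 difference lay between -0.12 and 0.18.

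The genes with the profile most like the striatal median were sought among 12072 genes with a mean of at least 50, outside the lists, by the root mean square difference of centred log2 values over the 6 libraries. Rapgef6, a guanine nucleotide exchange factor, was nearest (0.039), with 810.3, 754 and 779 in wild type and 518, 808 and 610.2 in Fezf2 KO. It was followed by Igsf9b (0.049), Lgi2 (0.052), Rhpn1 (0.055), Trpm3 (0.061), Mkl2 (0.067), Ppargc1a (0.072), Cnksr3 (0.078), Chml (0.080) and Ablim3 (0.083). All 10 were lowest in Fezf2 KO 1 and highest in wild type 1, an order that the choice by profile fixes. Among the 31 striatal genes, Gng7 (0.059) and Pde10a (0.093) were nearest to the median profile, and Rxrg (1.05) and Isl1 (1.31) were farthest.

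Several of the genes share sequence with a neighbour, and since the sources used here do not say whether counting used the strand, their values are uncertain to that extent. In the GENCODE vM21 annotation of GRCm38, exons of Six3, Oprm1, Rarb, Gnal and Arpp21 overlap those of Six3os1, Ipcef1, Top2b, Mppe1 and 2900079G21Rik on the opposite strand. Penk, Rasgrp2 and Tmem90a likewise overlap A830012C17Rik, Gm14965 and Gm48573, and Six3 and Rarb also overlap Gm28528 and Gm48162, none of which has a row under that name in the table. Six3os1, the antisense transcript, had 114, 68.9 and 73.0 in wild type and 20.3, 70.0 and 26.5 in Fezf2 KO, the same library order as Six3 in the knockouts. A noncoding row beside Penk, linc-Penk-BP, had 48.7, 43.6 and 33.5 against 10.6, 21.6 and 15.9, also with Fezf2 KO 2 the highest knockout. The row linc-Zfp503 had 407, 539 and 442 against 447, 554 and 500.7. Its knockouts had the same order as those of Zfp503, but its log2 difference between genotypes was 0.12.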

How the data were processed

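The table holds 1 row for each gene and 1 column for each of 6 libraries of total RNA, made with TruSeq chemistry for a Genome Analyzer II instrument according to the labels' protocols. The deposited signal is a read count divided by the authors' size factor; Bowtie, STAR, DESeq and genome build mm9 are named in the submitters' processing notes, with no role. Every value became a whole read count (100% within 0.006) once divided by what 1 read is worth, and 0 columns belonged to no sample. The 33 genes and all lists were chosen with earlier results of these data known.

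The filter kept 17557 genes that reached 10 in 3 or more libraries, and these were tested with limma 3.58.1 (R 4.3.3) on log2(value + 1), with genotype as the only term, a variance trend and Benjamini-Hochberg adjustment at 0.05. Alternatives were edgeR 4.0.16 quasi-likelihood (TMM or RLE) and DESeq2 1.42.0 on the recovered reads, a pseudocount of 0.5, no filter, a replicate block for litter, the m1 libraries on their own, omission of each library, and, chosen after seeing the data, wild type 1 and Fezf2 KO 1 left out together. In data simulated for this comparison (17557 genes), limma found 78.6% of 2-fold and 52.6% of 1.5-fold changes, and 7.2% of its calls were false. The changed genes were picked at random and every gene was drawn independently, without a shift shared by many genes of 1 library. These shares therefore do not describe the striatal genes in particular. Deviations from the genotype means were correlated between each wild type and each knockout library over 13582 genes. The correlation ran from -0.177 to 0.263 within a litter and from -0.226 to -0.0428 between litters. Within litter m1 it was negative for wild type 1 with Fezf2 KO 1 (-0.177) and for wild type 2 with Fezf2 KO 2 (-0.0731). The labels give litter as a shared origin. Library pairs differed beyond sampling noise (chi-square per degree of freedom 7.31 to 26.6). Each library is 1 brain, and no library was left out. Counting error alone sets the limit of 3 reads.

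Genes named were the 33, up to 4 with the smallest p from each other list (other striatal, dopamine and cyclic nucleotide signalling, cholinergic, pallidal and septal, thalamus, hippocampus, olfactory bulb, choroid plexus, cortical projection, endothelial and mural, microglia, erythroid), and the 10 nearest in profile. Where such genes are left out of the text, the list is given as a sum. Some genes of these lists are not reported here. Lbxcor1, Hbb-b2 and Hba-a1 were not matched. Promoters came from RefSeq on GRCm38.p6, used for sequence and not for the mm9 values.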

Additional observations from a re-analysis of the deposited data

How the results depend on the processing

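The number of striatal genes called lower was 0 in limma with all libraries, 2 by DESeq2, and 0 to 9 when 1 library was left out (9 without Fezf2 KO 2, 0 without each other). It was 0 in every other alternative, and 0 were higher in any. Over all genes limma called 125, DESeq2 403 (161 lower and 242 higher), litter m1 alone 29, and 61 to 119 when 1 library was left out, and 57 without both wild type 1 and Fezf2 KO 1. With litter as a replicate block 138 genes and 0 striatal genes were called (Penk adjusted p = 0.12, Meis2 0.0701), so the block changed no call among the striatal genes. The median log2 difference of the 31 genes ran from -0.41 to -0.16. In every alternative 22 genes were lower in Fezf2 KO. Signs turned for 7 genes, with log2 differences of -0.30 (Gpr6) to 0.01 (Gnal) over all libraries. Rasd2 was at 0.00 with edgeR TMM. When 1 library was left out, the log2 difference ran from -0.12 to 0.15 for Rasd2 (below 0 without wild type 1, -0.02, and without Fezf2 KO 3, -0.02), from -0.03 (Fezf2 KO 2 left out) to 0.04 for Ptpn5, which was -0.01 with wild type 2 left out, and from -0.02 to 0.04 for Gnal, and reached 0.03 from -0.16 for Adcy5. It ran from -0.62 to -0.10 for Gpr6, from -0.34 to -0.05 for Gpr149 and from -0.3 to -0.03 for Pbx3. With both wild type 1 and Fezf2 KO 1 left out, it was 0.09 for Adcy5, 0.02 for Gpr6, 0.04 for Gpr149 and 0.09 for Pbx3. The cause was not tested. Depth limits Drd3, Chat, Oprm1 and Scn4b, and with 3 libraries a genotype the spread between knockouts sets what the test can find.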
